A study of Homo sapiens with 6 samples.

Results

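The 9 genes described here are the NRF2 pathway genes NFE2L2 and KEAP1 together with 7 classic antioxidant targets, SLC7A11, GCLC, GCLM, TXNRD1, SRXN1, HMOX1 and NQO1. They were taken by symbol from a table of 35238 gene symbols, all 9 were in it, and all 9 were among the 16954 genes with enough counts to be tested. RNA was sequenced from HAP1, an established near-haploid human cell line that grows attached and derives from a myeloid leukaemia line. One group was 3 libraries of untreated DEGS1 knockout cells, and the other was 3 libraries of untreated wildtype cells. DEGS1 encodes the desaturase that turns dihydroceramide into ceramide. The medium held 5% serum for both genotypes and RNA was isolated 24 h after a passage, and the labels do not give the number of knockout clones or say whether the replicates were separate cultures. The p-values therefore reflect only how far these libraries scatter, and that scatter may be technical.

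NRF2, the protein made from NFE2L2, is a transcription factor that switches on genes against oxidants and reactive chemicals. In unstressed cells KEAP1 binds NRF2 and hands it to a ubiquitin ligase for destruction, so much of the control of the pathway acts on NRF2 protein and need not show in the mRNA of NFE2L2. When KEAP1 is modified by electrophiles, NRF2 builds up, pairs with small MAF proteins and binds antioxidant response elements near its targets. Those targets import cystine and make glutathione (SLC7A11, GCLC, GCLM), reduce thioredoxin and peroxiredoxins (TXNRD1, SRXN1), break down heme (HMOX1) and reduce quinones (NQO1).

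The antioxidant response element is the sequence through which the targets are linked to the factor, so the stretches around the transcription starts that hold its core letters are shown. Start windows from 250 bases before to 50 bases after the start were at hand from RefSeq (GRCh38.p14) for 7 of the 9 genes (all but HMOX1 and SLC7A11), in 10 windows, since NFE2L2, KEAP1 and TXNRD1 have 2 starts each. Each window was searched on both strands for the core TGACNNNGC. It was found in 4 of the 10 windows, in GCLM, KEAP1 and TXNRD1, and in 13.3% of all 35116 windows of the same length. None of the matches overlapped the AP-1 letters TGAGTCA or TGACTCA. The 4 windows with a match are printed from 120 bases before the start to 10 after it, on the strand of the gene, with the matched letters in capitals, and the NQO1 window, which has no match in its 300 bases, follows them because NQO1 was the only one of the 9 genes that passed the test.
GCLM (chr1:93909421-93909550, minus strand): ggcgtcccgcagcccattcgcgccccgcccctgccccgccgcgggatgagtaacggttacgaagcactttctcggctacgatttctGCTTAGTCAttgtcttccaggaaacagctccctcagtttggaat
TXNRD1, first start (chr12:104215659-104215788, plus strand): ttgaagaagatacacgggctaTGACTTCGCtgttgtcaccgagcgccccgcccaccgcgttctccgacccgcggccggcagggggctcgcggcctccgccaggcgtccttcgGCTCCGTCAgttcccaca
TXNRD1, second start (chr12:104286912-104287041, plus strand): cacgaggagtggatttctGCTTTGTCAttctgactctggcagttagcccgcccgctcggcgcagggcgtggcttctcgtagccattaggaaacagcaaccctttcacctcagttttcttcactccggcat
KEAP1 (chr19:10502762-10502891, minus strand): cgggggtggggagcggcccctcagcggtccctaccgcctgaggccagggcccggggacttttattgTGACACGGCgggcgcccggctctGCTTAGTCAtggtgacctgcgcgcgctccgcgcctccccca
NQO1 (chr16:69726551-69726680, minus strand): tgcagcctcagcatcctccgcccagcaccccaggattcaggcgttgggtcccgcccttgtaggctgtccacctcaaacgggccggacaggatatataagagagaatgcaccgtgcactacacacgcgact
The GCLM match runs from 34 to 26 bases before the start and reads GCTTAGTCA, the core on the opposite strand. The same 9 letters stand 31 to 23 bases before a start of KEAP1. In the first TXNRD1 window the matches lie from 99 to 91 bases before the start and across the start itself, and in the second from 102 to 94 bases before it. A match is a description of the letters and not evidence of binding, and the counts, which are per gene, do not say which start was used. A window without a match, as for NQO1, does not say that the gene lacks an element, since bases outside the 300 were not searched. These coordinates are of another build than the hg19 named for the counts and were not used with them.

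Levels are given as CPM, counts normalised to a common library size, and log2 fold changes are knockout over wildtype, with the standard error as SE. Adjusted p-values are those of the quasi-likelihood test in edgeR, corrected over all 16954 genes by the Benjamini-Hochberg method, and a gene was called at an adjusted p under 0.05. Library totals ran from 19389644 to 27659835 counts in the knockout and from 17322756 to 28988522 counts in wildtype. DEGS1 stood at 8.93 ± 1.84 CPM in the knockout and 108 ± 13.8 CPM in wildtype (SD, n = 3 each). Few blood cell transcripts were present: 3 of 10 blood markers had no count in any library, and their summed level was 5.58 to 6.72 CPM in the knockout and 4.68 to 9.32 CPM in wildtype. For 5 fibroblast markers, the sums were 8.75 to 10.9 CPM in the knockout and 5.83 to 11 CPM in wildtype. With all libraries, no marker was called in edgeR, DESeq2 or limma voom, the smallest p of each list being that of HBG2, a fetal globin (adjusted p = 0.232 in edgeR), 1 of 5 blood markers tested with an unadjusted p under 0.05, and of DCN (adjusted p = 0.654 in edgeR). In bulk RNA fewer cells of a type and less RNA per cell cannot be told apart. Wildtype replicate 2 stood apart: 756 genes were called in all (4.46% of those tested), but 3825 (22.1%) without that library. Calls among the 9 genes that change without it, and the counts of the lists and markers, are therefore given both ways. Knockout replicate 2 deviated from its genotype mean in a like way (r = 0.408 with wildtype replicate 2 over 10453 genes) and stays in that fit. Leaving out replicate 2 of wildtype alone is thus unbalanced, and the part of this in the added calls was not tested. In the fit without wildtype replicate 2, HBG2 was lower (log2 fold change -1.23, adjusted p = 0.0149 in edgeR), the only marker called. HBG2 had few reads, at 18, 20 and 19 counts in the knockout and 53, 24 and 30 counts in wildtype. That fit was the only 1 of the 15 other settings that tested HBG2 in which it was called. Wildtype replicate 2 had the lowest sum of both marker lists, so leaving it out raises the lowest wildtype sum of each. Summed blood markers then no longer overlapped, at 5.58 to 6.72 CPM in the knockout and 7.61 and 9.32 CPM in the other wildtype libraries. Summed fibroblast markers were 8.75 to 10.9 CPM in the knockout and 10.9 and 11 CPM in those wildtype libraries. The part of these marker differences in the values below was not tested.

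Of the 9 genes, 1 was called in the knockout, NQO1, which fell to 68.2% of its wildtype level. Of all tested genes 4.46% were called, 1.51% higher and 2.95% lower. SLC7A11, at 1.51 times its wildtype level, narrowly missed the threshold, and GCLM, at 1.28 times, missed it. The factor, its inhibitor and the other 4 targets had fold changes whose 95% intervals include no change. These 9 genes did not move one way: 5 log2 fold changes were positive and 4 negative, with a median of 0.049 beside -0.018 over all tested genes. Knockout and wildtype libraries did not overlap in 3 of the 9 genes, 2 higher and 1 lower, where 20.8% of all tested genes did not overlap (9.24% higher and 11.6% lower). Likewise 3 of 9 had an unadjusted p under 0.05, 2 higher and 1 lower, against 16.5% of all tested genes (6.69% higher and 9.81% lower).

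**Figure D1:**
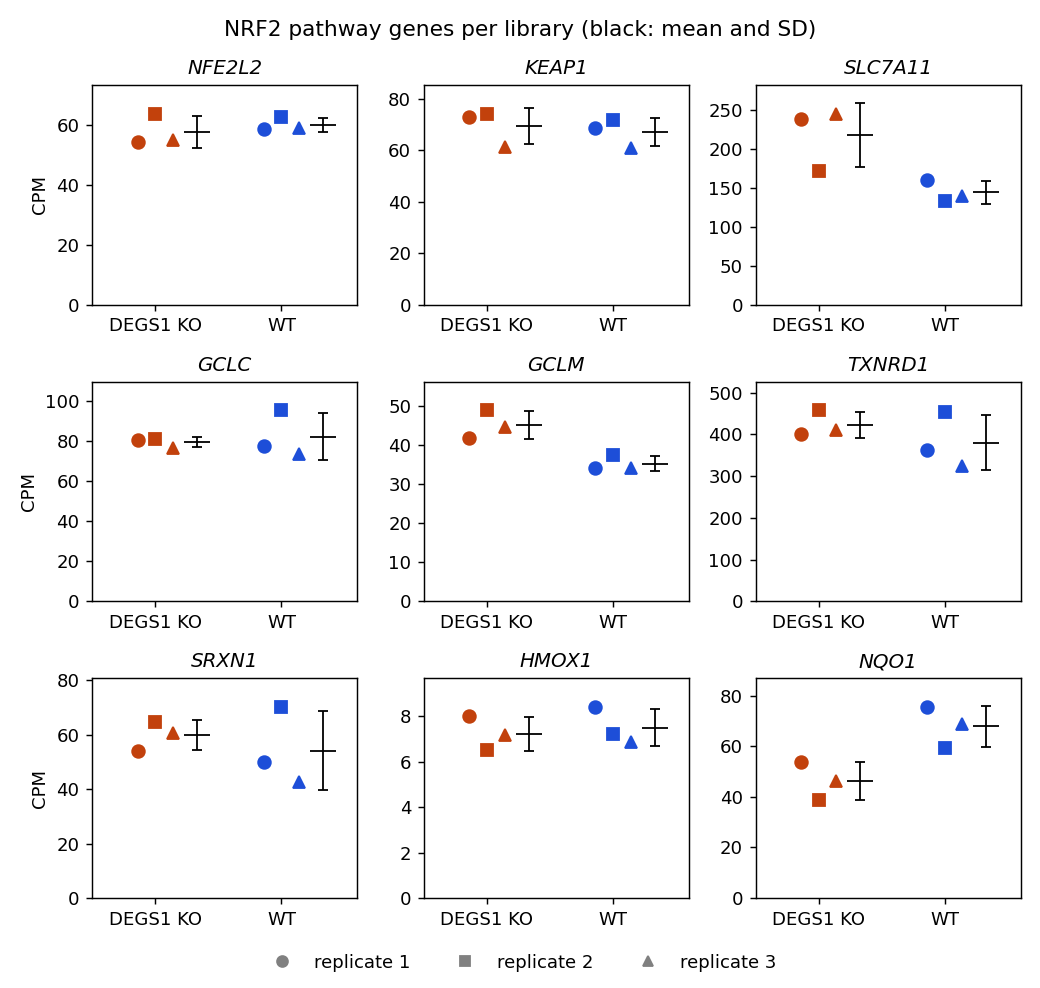
Levels of the 9 genes in each library (vertical axes, CPM, each from 0), with the 3 DEGS1 knockout libraries at left and the 3 wildtype libraries at right of each panel, marker shape for the replicate number, and the mean and SD in black. SLC7A11 and GCLM are higher and NQO1 is lower in every knockout library than in every wildtype library, while the other 6 panels overlap.

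NFE2L2, the gene of the factor itself, had 54.4, 63.8 and 55 CPM in the 3 knockout libraries and 58.6, 62.7 and 58.9 CPM in the 3 wildtype libraries. Both the lowest and the highest value belong to the knockout, and the wildtype libraries lie between them. The log2 fold change was -0.06 (SE 0.11, adjusted p = 0.828 in edgeR), with a 95% interval of -0.29 to 0.17. On the linear scale the interval runs from 0.819 to 1.13 times the wildtype level.

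KEAP1, the adaptor that marks NRF2 for destruction, had 72.9, 74.3 and 61.5 CPM in the knockout and 68.7, 71.7 and 61.0 CPM in wildtype. Here too the groups overlap, with replicate 3 lowest in both genotypes. The log2 fold change was 0.05 (SE 0.11, adjusted p = 0.865 in edgeR), with a 95% interval of -0.20 to 0.30. As a within-library measure of the pair, the ratio of NFE2L2 to KEAP1 CPM was 0.747, 0.859 and 0.895 in the knockout and 0.852, 0.875 and 0.965 in wildtype, which overlap as well.

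SLC7A11 is the cystine transporter whose import limits glutathione synthesis in many cultured cells. It had 238, 171 and 245 CPM in the knockout and 160, 133 and 139 CPM in wildtype. Every knockout library lay above every wildtype library, although knockout replicate 2, at 171 CPM, was closer to the highest wildtype library than to the other knockout libraries. The log2 fold change was 0.60 (SE 0.15, 95% interval 0.26 to 0.93) with an adjusted p of 0.0506 in edgeR, just outside the threshold. The gene was called in 6 of 16 other settings, among them edgeR without knockout replicate 2 (log2 fold change 0.75, adjusted p = 0.0192) and without wildtype replicate 2 (0.55, adjusted p = 0.0363), with adjusted p-values from 0.0029 to 0.261 over the 16. SLC3A2, the heavy chain that carries SLC7A11 to the membrane, had 194 ± 16.9 CPM in the knockout and 177 ± 12 CPM in wildtype (SD, n = 3 each), with a log2 fold change of 0.13 (SE 0.12, adjusted p = 0.637 in edgeR). SLC3A2 was picked for its pairing with SLC7A11 after its values were seen.

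Glutamate-cysteine ligase, the enzyme of the first and rate-limiting step of glutathione synthesis, is built of a catalytic subunit, GCLC, and a modifier subunit, GCLM, that makes it more efficient. GCLM had 41.8, 48.9 and 44.5 CPM in the knockout and 34.2, 37.4 and 34.2 CPM in wildtype, with no overlap. Its log2 fold change was 0.35 (SE 0.11, 95% interval 0.12 to 0.59) and did not pass over all genes (adjusted p = 0.102 in edgeR). Without wildtype replicate 2 it passed (log2 fold change 0.40, adjusted p = 0.0151 in edgeR), the only one of 16 other settings in which it did, with adjusted p-values up to 0.416.

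GCLC, in contrast, had 80.6, 81.1 and 76.5 CPM in the knockout and 77.6, 95.3 and 73.5 CPM in wildtype. The knockout libraries lie inside the wildtype range, which is wide because of replicate 2 at 95.3 CPM. The log2 fold change of GCLC was -0.05 (SE 0.12, adjusted p = 0.869 in edgeR), and 0.08 without wildtype replicate 2 (adjusted p = 0.543 in edgeR). The ratio of GCLC to GCLM CPM was 1.93, 1.66 and 1.72 in the knockout and 2.27, 2.55 and 2.15 in wildtype, with means of 1.77 ± 0.143 in the knockout and 2.32 ± 0.204 in wildtype (SD, n = 3 each). All 3 knockout libraries were below all 3 wildtype libraries in this ratio of transcripts, which compares the genotypes within each gene pair and not the amounts of the subunits. The ratio is not separate from GCLM, whose libraries did not overlap on their own. Single genes did not overlap in 20.8% of all tested, and the share among gene pairs was not counted.

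TXNRD1, the cytosolic thioredoxin reductase, and SRXN1, the sulfiredoxin that repairs over-oxidized peroxiredoxins, had like patterns over the libraries. TXNRD1 had 401, 458 and 410 CPM in the knockout and 364, 454 and 324 CPM in wildtype. SRXN1 had 54.0, 64.7 and 60.8 CPM in the knockout and 49.9, 70.2 and 42.5 CPM in wildtype. In both genes, replicates 1 and 3 of wildtype were below all knockout libraries and wildtype replicate 2 was within or above them, so that the wildtype range covers most or all of the knockout values. The log2 fold changes were 0.15 for TXNRD1 (SE 0.15, adjusted p = 0.659 in edgeR) and 0.14 for SRXN1 (SE 0.16, adjusted p = 0.711 in edgeR). Without wildtype replicate 2, the log2 fold change of SRXN1 was 0.38 (adjusted p = 0.0254 in edgeR) and that of TXNRD1 0.30 (adjusted p = 0.051 in edgeR), in a fit that called 22.1% of all genes, and without wildtype replicate 3 they were -0.0034 and 0.05.

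HMOX1, the inducible heme oxygenase, was the least abundant of the 9, at 156, 170 and 197 counts in the knockout and 214, 195 and 128 counts in wildtype. Scaled, these were 8, 6.5 and 7.18 CPM in the knockout and 8.41, 7.24 and 6.86 CPM in wildtype. The groups overlap throughout. Its log2 fold change of -0.06 (SE 0.18, adjusted p = 0.901 in edgeR) had the widest 95% interval of the 9 genes, -0.45 to 0.34, so an increase of up to 1.26-fold is not distinguishable from no change here.

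NQO1, the quinone reductase that is often used as a readout of NRF2 activity, had 53.7, 38.9 and 46.4 CPM in the knockout and 75.5, 59.4 and 68.9 CPM in wildtype. The highest knockout library was below the lowest wildtype library, and in both genotypes replicate 1 was the highest and replicate 2 the lowest. NQO1 averaged 46.3 ± 7.39 CPM in the knockout and 67.9 ± 8.07 CPM in wildtype (SD, n = 3 each), and the log2 fold change was -0.55 (SE 0.14, 95% interval -0.85 to -0.25, adjusted p = 0.0423 in edgeR). The call was kept in 8 of 16 other settings, only narrowly with the filter of 1 CPM in 3 libraries (adjusted p in edgeR 0.05 after rounding). Among these 8 is the setting with library totals taken without the 10 most abundant genes, which only repeated the reported values. With all libraries it was lost under upper-quartile scaling (adjusted p = 0.0719), library size only (0.0888), limma voom (0.0502) and removal of chromosome medians (0.438). It was also lost without knockout replicate 2 (0.142), knockout replicate 3 (0.178), wildtype replicate 1 (0.192) or wildtype replicate 3 (0.0634), and kept without wildtype replicate 2 (0.00462).

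**Figure D2:**
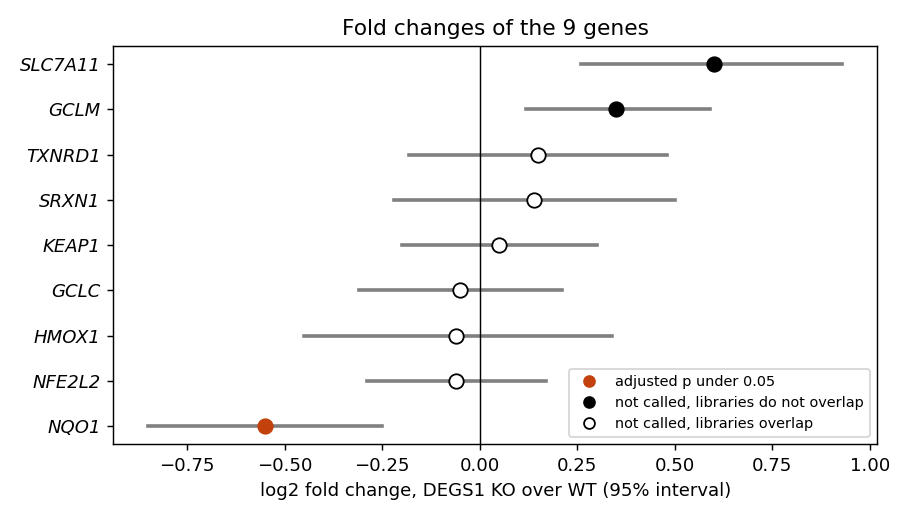
Log2 fold change of each gene, knockout over wildtype (horizontal axis), with its 95% interval as a grey bar. NQO1 (orange, -0.55) is the only gene with an adjusted p under 0.05, the intervals of SLC7A11 and GCLM (filled black) lie above 0 without passing the adjustment, and the other 6 (open) cross 0.

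**Figure D3:**
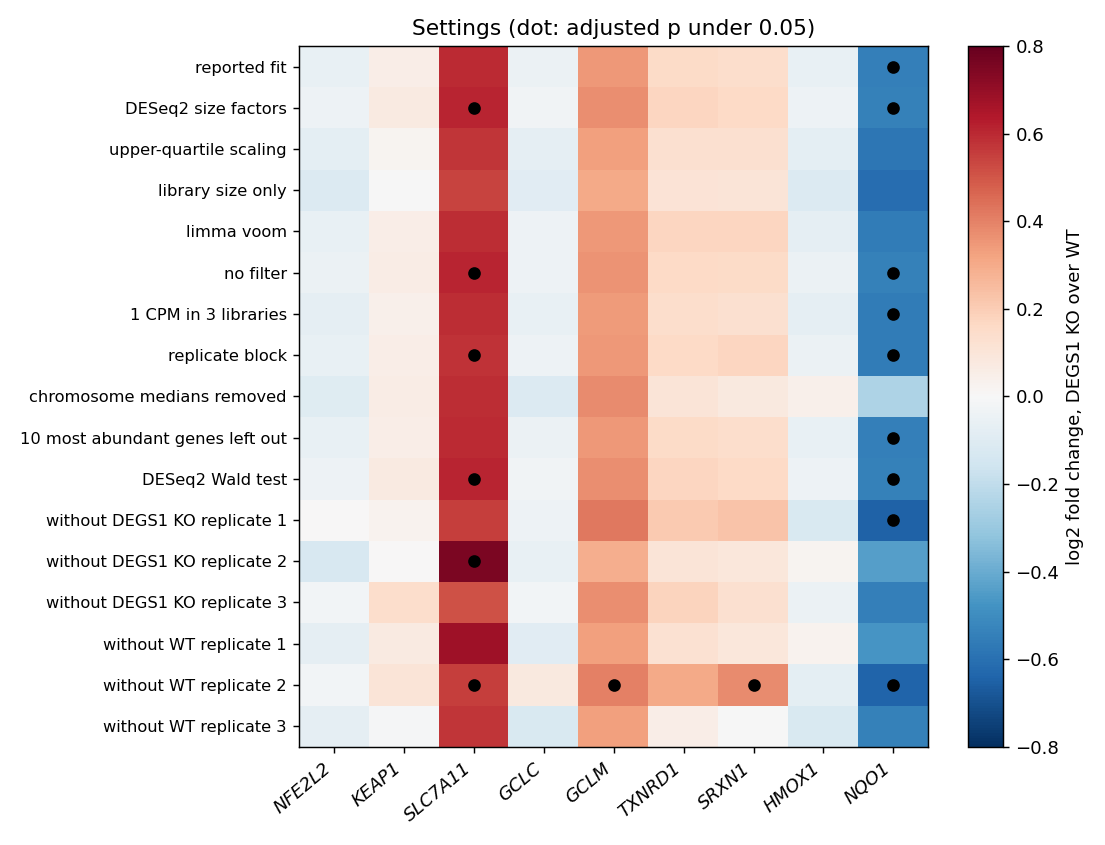
Log2 fold change, knockout over wildtype (colour scale), of the 9 genes (columns) as reported and under 16 other settings (rows), with a dot where the adjusted p was under 0.05. The NQO1 column is negative and the SLC7A11 and GCLM columns positive in every row, NQO1 is palest with chromosome medians removed (-0.25), and 4 genes carry a dot without wildtype replicate 2.

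NQO1 lies on the long arm of chromosome 16, here the part beyond the widest gap between tested genes, and the genes of that part were lower as a group. Of its 316 tested genes 295 (93.4%) had a negative log2 fold change, with a median of -0.29, while the median of the first part of the chromosome was -0.05. In 40.8% of these 316 genes all knockout libraries were below all wildtype libraries, and 8.23% were called lower, so a lower NQO1 is read against those shares rather than the 11.6% and 2.95% of all tested genes. NQO1 was below the median of its part, with 49 genes (15.6%) lower than it. Once the median of each chromosome was taken off, NQO1 stood at a log2 fold change of -0.25 (SE 0.14, adjusted p = 0.438 in edgeR).

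The 5 tested genes on either side of NQO1 all had negative log2 fold changes, from -0.76 to -0.20 with a median of -0.46. Of these 10, 2 were called, NFAT5, which encodes a factor of the osmotic stress response (91.6 CPM in the knockout and 155 CPM in wildtype, log2 fold change -0.76, adjusted p = 0.0419 in edgeR), and TERF2, which encodes a telomere-binding protein (18.5 CPM in the knockout and 28.4 CPM in wildtype, log2 fold change -0.62, adjusted p = 0.0234 in edgeR). NQO1 therefore lay within the range of its immediate neighbours, with 2 of the 10 below it. None of the other 8 pathway genes lies on a chromosome with such a shift: the medians of their chromosomes were between -0.07 and 0.07, and with chromosome medians removed SLC7A11 stood at 0.59 and GCLM at 0.38.

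**Figure D4:**
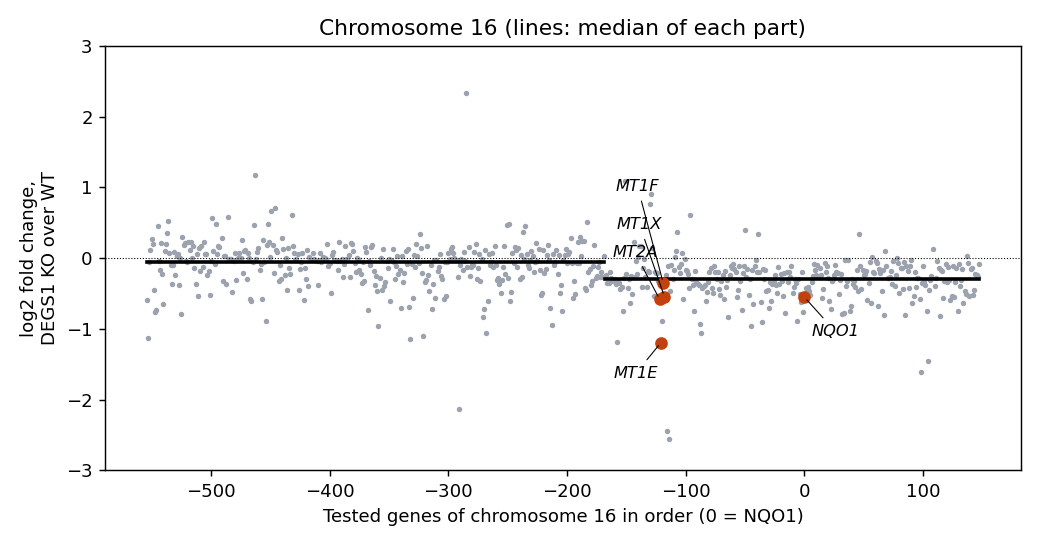
Log2 fold change, knockout over wildtype (vertical axis), of the 702 tested genes of chromosome 16 in their order along it, counted from NQO1 at 0 (2 genes lie beyond the axis limits of 3). The black lines are the medians of both parts, -0.05 and -0.29, and NQO1 and the 4 tested metallothionein genes of the lists, marked in orange, all lie in the part with the lower median.

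By level per length, in CPM per kilobase of the longest annotated transcript, TXNRD1 was the most abundant of the 9 genes, at 98.9 in the knockout and 89.0 in wildtype. HMOX1 was the least abundant, at 3.97 in the knockout and 4.12 in wildtype, and GCLM was next, at 9.28 in the knockout and 7.27 in wildtype, and none of these 3 overlapped a neighbour in the order in either genotype. In wildtype NQO1 (23.3), KEAP1 (22.7), GCLC (21.5), NFE2L2 (21.1) and SRXN1 (20.1) had overlapping library values, and SLC7A11 (14.9) overlapped only SRXN1. In the knockout KEAP1 (23.5), SLC7A11 (22.6), SRXN1 (22.2), GCLC (20.8) and NFE2L2 (20.2) formed the overlapping group, and NQO1 (15.9) overlapped only SLC7A11. By mean, SLC7A11 thus stood second in this group in the knockout and below it in wildtype, and NQO1 stood below it in the knockout and first in wildtype. Since the library values of the group overlap, places inside it are not resolved. A level per length depends on which transcript is present, which the counts do not tell.

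Some of the 9 genes varied alike between replicates. Replicate 2 was the highest knockout library and also the highest wildtype library for the same 6 genes, NFE2L2, KEAP1, GCLC, GCLM, TXNRD1 and SRXN1. For NQO1 and SLC7A11 replicate 2 was the lowest library in both genotypes. The replicate 2 libraries also had the lowest scaling factors of their genotypes, 0.948 in the knockout and 0.929 in wildtype, and the part of this in the values above was not tested. Over the 6 libraries, the log2 CPM of NFE2L2 was most like that of UHRF1BP1L, UBE2K and PTPN4 among 10453 genes (Pearson r 0.995, 0.994 and 0.992), and that of NQO1 most like ADAMTS2, CARS2 and EXPH5 (0.993, 0.990 and 0.989). None of these 6 is on the same chromosome as NQO1, but CARS2 is on chromosome 13, whose median log2 fold change was -0.34. ADAMTS2, CARS2 and EXPH5 had, like NQO1, negative log2 fold changes (-0.84, -0.32 and -0.46). Only ADAMTS2 of them was called (adjusted p = 0.0275 in edgeR). With 6 libraries in 2 genotypes such values describe likeness only.

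The other genes of the pathway were taken from 7 lists, and the medians of their log2 fold changes are to be read beside the -0.018 of all tested genes. Their counts at an unadjusted p under 0.05 are to be read beside 6.69% higher and 9.81% lower of all tested genes. Of 21 tested regulators of NRF2 none was called in edgeR's test, 3 higher and 1 lower at an unadjusted p under 0.05, with a median log2 fold change of 0.05. Nearest to the threshold was SQSTM1, the autophagy receptor p62 that sequesters KEAP1 and is itself an NRF2 target. It had 166, 155 and 158 CPM in the knockout and 117, 128 and 107 CPM in wildtype, a log2 fold change of 0.44 (SE 0.11, adjusted p = 0.0536 in edgeR). Knockout and wildtype did not overlap, and SQSTM1 was called in 6 of 16 other settings, with adjusted p-values from 0.00211 to 0.242.

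Among 32 tested genes of glutathione synthesis and use none was called, 3 were higher and 0 lower at an unadjusted p under 0.05, and the median log2 fold change was 0.10. GPX1, the main cytosolic glutathione peroxidase, had the smallest p, with 99.7 ± 5.52 CPM in the knockout and 80.5 ± 2.73 CPM in wildtype (SD, n = 3 each) and a log2 fold change of 0.31 (SE 0.10, adjusted p = 0.133 in edgeR). Of 24 genes of the thioredoxin and peroxiredoxin systems, 1 rose and none fell, 3 were higher and 0 lower at an unadjusted p under 0.05, and the median was 0.16. The gene that rose was SESN3, a stress-induced sestrin, at 97.3, 135 and 114 CPM in the knockout and 57.1, 80.5 and 57.3 CPM in wildtype, with a log2 fold change of 0.83 (SE 0.16, adjusted p = 0.0115 in edgeR). The libraries of SESN3 did not overlap, and it kept its call in 14 of 16 other settings.

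Of 19 genes of NADPH supply none was called, 1 was higher and 0 lower at an unadjusted p under 0.05, and the median was 0.01. The smallest p was that of ME1, the cytosolic malic enzyme, at 139 ± 0.921 CPM in the knockout and 111 ± 24.0 CPM in wildtype (SD, n = 3 each), with an adjusted p of 0.294 in edgeR. In 15 genes of heme and iron none was called either, with 1 higher and 1 lower at an unadjusted p under 0.05 and a median of 0.11. FLVCR1, which encodes a heme and choline transporter, came nearest with a log2 fold change of -0.36 (SE 0.11, adjusted p = 0.102 in edgeR).

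Of 27 genes of detoxification and export, 1 fell and none rose, 1 was higher and 5 lower at an unadjusted p under 0.05, and the median log2 fold change was -0.11. The gene that fell was ABCC4, an exporter of organic anions and cyclic nucleotides, at 37.4, 43.9 and 41.0 CPM in the knockout and 60, 72.1 and 60.2 CPM in wildtype (log2 fold change -0.65, SE 0.12, adjusted p = 0.00677 in edgeR). ABCC4 is on chromosome 13, whose 293 tested genes had a median of -0.34, and once chromosome medians were taken off ABCC4 stood at a log2 fold change of -0.31 (adjusted p = 0.151 in edgeR).

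The last list holds 17 tested genes of superoxide and hydrogen peroxide metabolism, and it mixes genes with opposite roles: dismutases, catalase and metallothioneins, which remove oxidants or bind metals, beside NADPH oxidase and dual oxidase genes such as NOX4, CYBB and DUOX1, which produce them, and the sterol enzyme DHCR7. In it 2 fell and none rose, 1 was higher and 4 lower at an unadjusted p under 0.05, and the median of -0.08 covers both kinds. Both that fell were metallothioneins, MT1E (log2 fold change -1.20, SE 0.24, adjusted p = 0.0238 in edgeR) and MT2A (-0.58, SE 0.14, adjusted p = 0.0356 in edgeR), metal-binding proteins of a family of close copies between which reads may be split. MT1E had 26.1, 14 and 22.3 CPM in the knockout and 60.3, 43.8 and 38.5 CPM in wildtype. They lie in the same part of chromosome 16 as NQO1, and with chromosome medians removed MT1E stood at -0.89 (adjusted p = 0.101 in edgeR) and MT2A at -0.28 (adjusted p = 0.41 in edgeR). A relative in the same part, MT1X, named after its values were seen, had a log2 fold change of -0.54 (SE 0.15, adjusted p = 0.0698 in edgeR). MT1F, the other tested metallothionein of the list, overlapped between genotypes and had a log2 fold change of -0.35 (SE 0.22, adjusted p = 0.474 in edgeR), or -0.05 with chromosome medians removed. ABCC4 and MT1E each kept their calls in 13 of 16 other settings and MT2A in 9. With all libraries, 4 of the 155 tested genes of the 7 lists together were called (2.58%, beside 4.46% of all tested genes). Of these, 1 was higher (0.645%, beside 1.51%) and 3 were lower (1.94%, beside 2.95%), and in this fit none of these shares was above that of all genes. The 3 that fell are on chromosome 13 (293 tested genes, median -0.34) or in the same part of chromosome 16 as NQO1 (316 tested genes, median -0.29). In that part of chromosome 16, 8.23% of the tested genes were called lower, and the share on chromosome 13 was not counted. The part of these shifts in the calls was not tested. The DESeq2 Wald test, which called 5.89% of all genes, added 2 regulators of NRF2 (SQSTM1 and BACH2), 2 genes of detoxification and export (ABCC2 and EPHX2) and MT1X. Of these, BACH2 was higher, at 4.48 CPM in the knockout and 2.35 CPM in wildtype. ABCC2 (1.09 and 2.54 CPM, 16 to 66 counts a library) and EPHX2 (0.784 and 1.99 CPM, 13 to 61 counts a library) were lower in the knockout and had few reads. The limma voom fit gave the same number of calls as edgeR in every list. Without wildtype replicate 2, 22.1% of all genes were called, 1835 higher and 1990 lower of 17305. There the glutathione list had 6 higher and 2 lower and the thioredoxin and peroxiredoxin list 6 higher and 0 lower, and no list was tested as a set. In that fit the counts were 3 higher and 2 lower for the regulators, 4 and 1 for NADPH supply, 1 and 4 for detoxification and export, 3 and 1 for heme and iron, and 3 and 3 for the superoxide and hydrogen peroxide list. The share of the lists together was not counted in that fit, so the comparison of shares above holds only for the fit with all libraries.

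**Figure D5:**
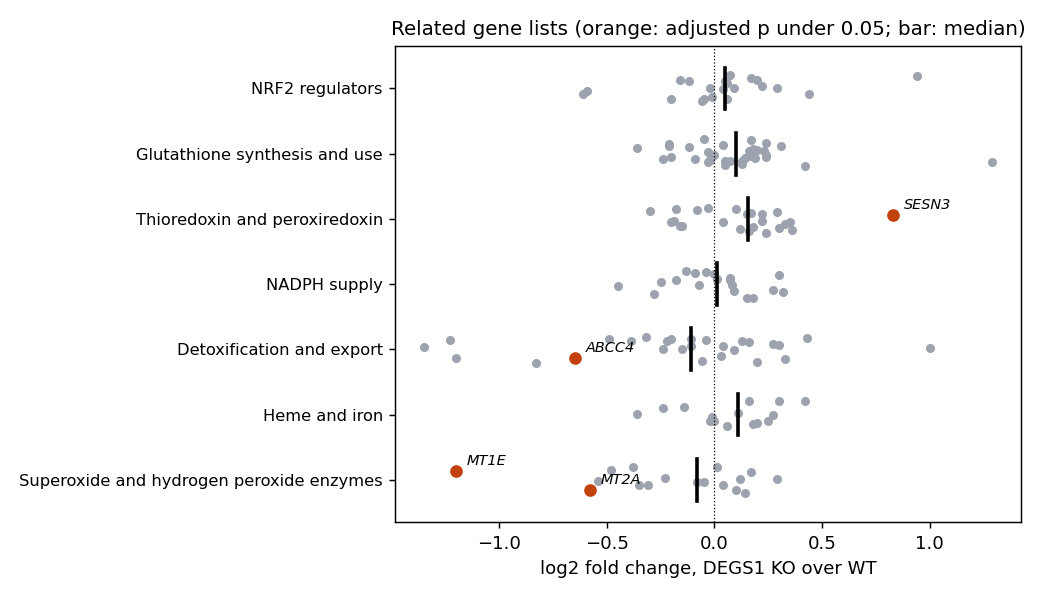
Log2 fold change, knockout over wildtype (horizontal axis), of the tested genes of 7 lists related to the NRF2 pathway, each point 1 gene, vertical bars the list medians and orange the genes with an adjusted p under 0.05. The medians lie between -0.11 and 0.16, and the 4 orange genes are SESN3 above 0 and ABCC4, MT1E and MT2A below it.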

How the data were processed

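RNA of 3 DEGS1 knockout and 3 wildtype HAP1 libraries was sequenced as single reads of 75 nt after stranded total RNA library preparation, per the labels' protocols. The deposited values are raw read counts per gene symbol, as the authors made them. The submitters' processing notes name bcl2fastq 2.20 and hg19. The aligner, counter, gene annotation and strand setting were not given in the sources used here. Overlapping and antisense genes may therefore be mixed.

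The tests used edgeR 4.0.16 under R 4.3.3 (TMM scaling, expression filter, robust quasi-likelihood fit on genotype), and the steps were tested on simulated data. The SE was derived as the absolute log2 fold change divided by the root of F, and the 95% intervals use the residual plus prior degrees of freedom of that fit. A count of 3 corresponds to 0.109 to 0.161 CPM. Replicate libraries differed by more than sampling noise (chi-square per degree of freedom 11.7 to 48.2). Transcript lengths came from GENCODE release 29, and chromosomes and gene order from RefSeq. All symbols of the 9 lists were in the table.

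The members and lists were chosen with earlier results of these data known. By rule, the named genes are the members, DEGS1, the called genes of each list or its smallest p, and the 3 genes most like NFE2L2 and NQO1. Outside the rule, chosen after their values were seen, are NFAT5 and TERF2 (called neighbours of NQO1), SLC3A2, MT1X, MT1F, BACH2, ABCC2 and EPHX2, and NOX4, CYBB, DUOX1 and DHCR7 as list contents. Among the 16 other settings were 3 other scalings, DESeq2 1.42.0, limma 3.58.1 voom, 2 other filters, the replicate number as a block and chromosome medians removed. The rest took the library totals without the 10 most abundant genes, or left out each library in turn. Under TMM scaling the changed library totals returned the reported values, so that setting is no separate check, though it counts among the 16. Counts of calls were also taken at an adjusted p under 0.01.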

Additional observations from a re-analysis of the deposited data

How the results depend on the processing

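Between 664 and 1082 genes were called in the 10 other settings that kept all libraries, against 756 as reported, and 375 at an adjusted p under 0.01. Leaving out 1 library gave 380 to 3825 calls: 424 without knockout replicate 1, 380 without knockout replicate 3, 441 without wildtype replicate 1 and 3825 without wildtype replicate 2. The number of the 9 genes called was 1 as reported. It was 2, NQO1 and SLC7A11, with DESeq2 size factors, no filter, the replicate block and the DESeq2 Wald test. Those settings called 4.35%, 3.95%, 6.38% and 5.89% of all genes, in that order. The number was 0 under upper-quartile scaling, library size only, limma voom, chromosome medians removed and an adjusted p under 0.01. When 1 library was left out it was 0 to 4, the 4 being NQO1, GCLM, SRXN1 and SLC7A11 without wildtype replicate 2. That fit called 22.1% of all genes.

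NQO1 was negative, and SLC7A11, GCLM and TXNRD1 positive, in all 16 other settings. The log2 fold changes that turned their sign were all close to 0: NFE2L2 (0.00042 without knockout replicate 1), KEAP1 (-0.0017 with library size only and -0.01 without wildtype replicate 3), HMOX1 (0.04 with chromosome medians removed, 0.02 without knockout replicate 2 and 0.03 without wildtype replicate 1), GCLC (0.08 without wildtype replicate 2) and SRXN1 (-0.0034 without wildtype replicate 3). Over the fits that left out 1 library the ranges were -0.13 to 0.00042 for NFE2L2, -0.01 to 0.14 for KEAP1, -0.12 to 0.03 for HMOX1, -0.12 to 0.08 for GCLC and -0.0034 to 0.38 for SRXN1. The cause was not tested.

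Same-numbered libraries did not all deviate together from their genotype means (r = 0.257, 0.408 and -0.23 over 10453 genes for replicates 1, 2 and 3), so the shared numbers were not taken as pairs. Among all pairs of a knockout and a wildtype library, r was highest for knockout replicate 1 with wildtype replicate 3 (0.587). It was lowest for knockout replicate 1 with wildtype replicate 2 (-0.557). The labels also give same-numbered knockout and wildtype libraries a shared identifier and do not say whether it marks a culture, day or batch. With the replicate block 1082 genes were called, NQO1 at an adjusted p of 0.00476 and SLC7A11 at 0.0129, against 0.0423 and 0.0506 without it. HMOX1, with 128 to 214 counts a library, is the gene whose value is most limited by depth.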
